A study of Mus musculus with 15 samples.

Results

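Bulk RNA from pancreatic islets of mice carrying a human IAPP transgene (group hIAPP, 3 libraries) was compared with that from islets of mice carrying a human calpastatin transgene and no IAPP transgene (group hCAST, 3 libraries). These 6 libraries were taken by their column labels, out of 15 in the series, and the calpastatin libraries served here as deep controls with few ribosomal reads. All mice were FVB/NJ and 9 to 10 weeks old, and per the labels both transgenes were driven by the insulin II promoter, which is active in beta cells. The hIAPP mice lacked the human CAST transgene and the hCAST mice lacked the human IAPP transgene, so the comparison sets human IAPP against human CAST and the effect of either transgene alone cannot be told apart in it. Sex and the number of founder lines are not given in the labels used here. Nothing states that each library came from a separate animal. The p-values therefore measure the spread between libraries of a group, estimated over all 15 libraries of the series and not from the 6 alone.

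IAPP, also called amylin, is a peptide hormone that beta cells store and release together with insulin. The human peptide can assemble into toxic oligomers and amyloid fibrils, and islet amyloid is a known feature of type 2 diabetes. Calpastatin, the product of CAST, is the natural inhibitor of the calpains, calcium-activated proteases. Resident macrophages are the main immune cells of healthy islets, and they take up material released by beta cells.

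The 6 libraries were deep and even, with total counts of 35510664 to 36763315 in hIAPP and 34904705 to 37829688 in hCAST. The genes that carry ribosomal reads (Rn45s, Lars2 and Mir6236) took 0.3513 to 7.627% of the counts in hIAPP, with the highest share in hIAPP 2, against 0.2855 to 0.4909% in hCAST, and none of these 3 genes passed the test. The summed share of the acinar list, exocrine enzymes carried over with islets, was 7.888 to 15.36% of the other counts in hIAPP and 5.276 to 10.9% in hCAST, and the groups overlapped. Correlations of log2 CPM (counts scaled to the size of each library) were 0.9887 to 0.9913 within hIAPP, 0.989 to 0.9923 within hCAST and 0.9784 to 0.9865 between the groups, and no pair of libraries looked like a duplicate, since 0.815 to 1.22% of genes had the same count in both. The tissue label was borne out by Ins1 and Ins2, which together took 9.904 to 11.8% of the other counts in hIAPP and 12.23 to 14.07% in hCAST.

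Islets with human IAPP had more RNA of macrophage genes, of extracellular matrix and of stellate cells and pericytes, and less RNA of MHC class II and of some beta cell genes. A pair of neighbouring genes on chromosome 15, Sema5a and Snhg18, had the smallest p-values of all. Of 15460 genes tested with edgeR's quasi-likelihood test, 1112 (7.19%) were called at a Benjamini-Hochberg adjusted p below 0.05, with 779 higher in hIAPP (5.04%) and 333 lower (2.15%). The rises were larger than the falls. Among the called genes, 381 were more than 2-fold higher and 34 more than 2-fold lower, and the median log2 fold change was 0.99 for the higher genes and -0.40 for the lower ones, against 0.004 over all tested genes. The 3 hIAPP libraries did not overlap the 3 hCAST libraries for 1108 of the called genes and for 32.7% of all tested genes. The number of calls was 672 without hIAPP 1, 563 without hIAPP 2, 600 without hIAPP 3, 498 without hCAST 1, 377 without hCAST 2 and 924 without hCAST 3. A fit of these 6 libraries alone called 1784 genes, and limma on the log2(FPKM + 1) scale of the deposited FPKM table called 66, of which 92.4% were higher in hIAPP, against 70.1% in the count fit.

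**Figure D1:**
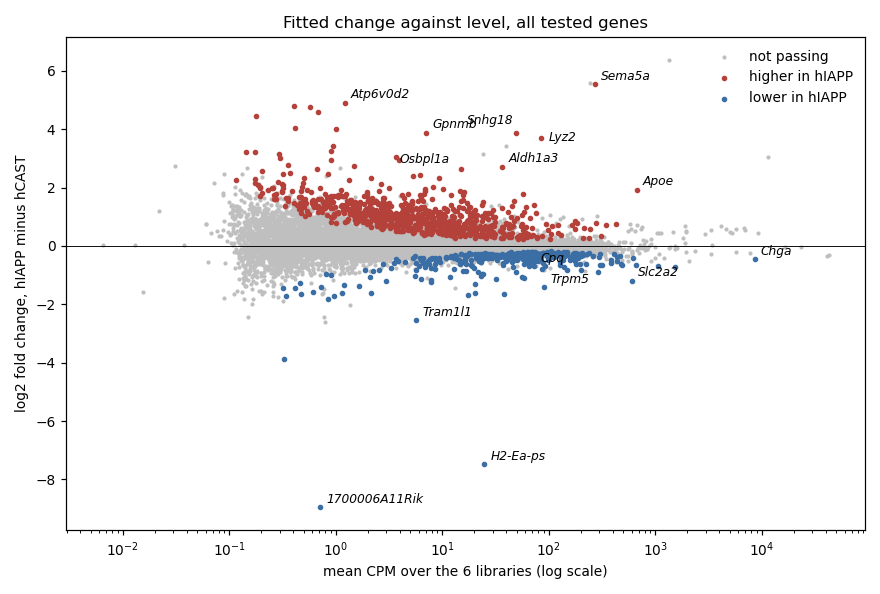
Fitted log2 fold change (hIAPP minus hCAST) against the mean CPM over the 6 libraries on a log scale, for all 15460 tested genes. Red points are the 779 genes called higher, blue points the 333 called lower and grey points those that did not pass. Sema5a (5.53), Snhg18 (3.87) and Lyz2 (3.69) are among the largest rises, and H2-Ea-ps and 1700006A11Rik lie at the bottom.

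Neither mouse counterpart of the transgenes passed the test. Mouse Iapp stood at 23124, 23515 and 23318 CPM in hIAPP 1, 2 and 3, and at 23205, 23621 and 24221 CPM in hCAST 1, 2 and 3 (log2 fold change -0.02 ± 0.173 SE, adjusted p = 0.963 in edgeR's quasi-likelihood test). Mouse Cast stood at 19.6, 19.9 and 19.3 CPM in hIAPP, against 21.4, 21.6 and 20.4 CPM in hCAST (-0.11 ± 0.0695, adjusted p = 0.397). The groups did not overlap for Cast, and the difference did not pass. These rows are mouse genes and the transgenes themselves were not analysed here, so they do not check the genotype labels.

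Most macrophage genes rose. Of the list's 25 tested members, 19 rose, none fell and 6 did not pass, with a median log2 fold change of 1.33. The summed level of the list was 493, 553 and 381 CPM in hIAPP, against 123, 123 and 133 CPM in hCAST, a 3.76-fold ratio of the means. Every hIAPP library lay above every hCAST library. In bulk RNA, more or fewer cells of a type cannot be told apart from more or less RNA per cell. The count of members that rose was 15 to 19 when each library was left out in turn, and 1 member was called lower without hIAPP 1.

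Lyz2, the macrophage lysozyme, was the most abundant of the strongly raised members. It stood at 166, 176 and 129 CPM in hIAPP, against 11.6, 12.3 and 12.6 CPM in hCAST (log2 fold change 3.69 ± 0.275, adjusted p = 1.73e-05 in edgeR's quasi-likelihood test). The lowest hIAPP library was far above the highest hCAST library. Its near-identical neighbour Lyz1 rose as well at under 1 CPM, and reads can be split between these paralogs. Cd68, a lysosomal glycoprotein of phagocytes, stood at 8.77, 14.1 and 8.49 CPM in hIAPP and at 1.72, 2.09 and 2.02 CPM in hCAST (2.42 ± 0.28, adjusted p = 0.000136). Ms4a7, a membrane protein of macrophages, rose by 1.96 ± 0.163 on the log2 scale, and Cx3cr1, the fractalkine receptor, by 1.87 ± 0.216. Ctss, a lysosomal protease of antigen-presenting cells, rose by 1.53 ± 0.175. Laptm5, a lysosomal membrane protein of blood cells, rose by 1.74 ± 0.221. The growth factor receptor Csf1r, on which macrophages depend, rose by 1.25, the signalling adaptor Tyrobp by 1.78 and Spi1, which encodes the transcription factor PU.1, by 1.13. The members that did not pass included Mrc1 (0.05), Cd163 (0.58), Cd14 (-0.13) and Ccr2 (-0.89), known from other macrophage and monocyte states. Adgre1 had no row in the table by that symbol.

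Genes of the lipid-associated macrophage state, which phagocytes take on in fat, plaques and injured nervous tissue, were among the largest rises of all. Of 23 tested members, 14 rose, 1 fell and 8 did not pass, with a median log2 fold change of 0.92. Trem2, a lipid-sensing receptor that signals through Tyrobp, stood at 6.71, 9.02 and 5.03 CPM in hIAPP, against 0.72, 0.86 and 1.1 CPM in hCAST (2.94 ± 0.347, adjusted p = 0.000166 in edgeR's quasi-likelihood test). Gpnmb, a membrane glycoprotein induced when lysosomes are loaded, stood at 10.5, 18.2 and 11.3 CPM in hIAPP, against 0.6, 0.915 and 1.2 CPM in hCAST (3.87 ± 0.407, adjusted p = 0.000133). For both genes all hIAPP libraries lay several times above the hCAST libraries, with hIAPP 2 the highest. Atp6v0d2, a subunit of the proton pump that acidifies lysosomes, had 359 counts over the hIAPP group and 12 over the hCAST group, a 30.6-fold ratio (95% interval for counting error only, 17.3 to 59.9). Apoe, the lipid carrier, stood at 1047, 1155 and 970 CPM in hIAPP, against 255, 260 and 324 CPM in hCAST (1.92 ± 0.158, adjusted p = 3.63e-06). Clec7a, the receptor dectin-1, rose by 2.33 ± 0.327 and Axl, a receptor kinase for dying cells, by 1.0 ± 0.0914. Cst7, a protease inhibitor, had 27, 139 and 22 counts in hIAPP and 0, 8 and 0 counts in hCAST, and hIAPP 2 held most of them. Lpl, lipoprotein lipase, was the member that fell, by 0.47 on the log2 scale. Spp1 (0.04), Cd63 (-0.01) and Ctsl (-0.01), which are also made by other islet cells, did not pass.

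Other genes of blood and phagocytic cells were among the 12 largest rises. Fcrls, an Fc receptor-like molecule of mouse macrophages, had 105, 109 and 73 counts in hIAPP and 2, 3 and 13 counts in hCAST, a 16.3-fold ratio of the sums (95% interval 10.1 to 28). Cd84, a receptor of the SLAM family on blood cells, stood at 5.78, 7.8 and 6.12 CPM in hIAPP and at 0.5, 0.75 and 1.12 CPM in hCAST (3.04 ± 0.241, adjusted p = 1.33e-06 in edgeR's quasi-likelihood test). Csf3r, the G-CSF receptor, stood at 2.59, 3.73 and 1.46 CPM in hIAPP, against 0.52, 0.238 and 0.4 CPM in hCAST (2.74 ± 0.386, adjusted p = 0.000427). It was counted under the neutrophil and mast cell list, of which 2 members were tested and the other, Kit, did not pass. The neutrophil genes S100a8 and S100a9 had 0 to 4 counts per library in either group.

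**Figure D2:**
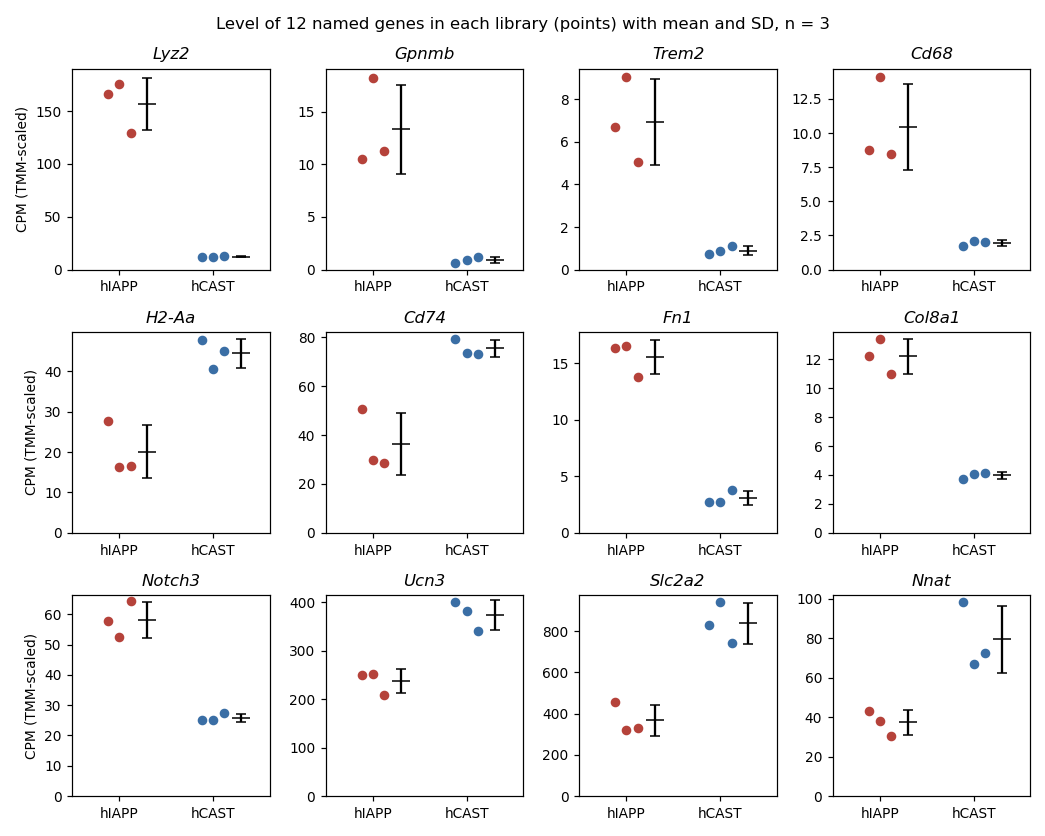
CPM of 12 genes in each hIAPP (red) and hCAST (blue) library, with the mean and SD of the 3 libraries of each group beside the points. The macrophage genes Lyz2, Gpnmb, Trem2 and Cd68, the matrix genes Fn1 and Col8a1 and the pericyte gene Notch3 are higher in every hIAPP library; H2-Aa, Cd74, Ucn3, Slc2a2 and Nnat are lower in every hIAPP library.

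Promoters of macrophage genes were read from RefSeq (GRCm38.p6), since PU.1 binds purine-rich sites with a GGAA core. To show windows with and without a match, 3 genes from the 12 largest rises are given, Lyz2 (chr10:117282223-117282522, minus strand), Fcrls (chr3:87263475-87263774, minus strand) and Gpnmb (chr6:49036268-49036567, plus strand). Each window holds 250 bases before and 50 after the gene start. Capitals mark a match to AGGAAGT on either strand, which reads ACTTCCT on the opposite strand.
Lyz2: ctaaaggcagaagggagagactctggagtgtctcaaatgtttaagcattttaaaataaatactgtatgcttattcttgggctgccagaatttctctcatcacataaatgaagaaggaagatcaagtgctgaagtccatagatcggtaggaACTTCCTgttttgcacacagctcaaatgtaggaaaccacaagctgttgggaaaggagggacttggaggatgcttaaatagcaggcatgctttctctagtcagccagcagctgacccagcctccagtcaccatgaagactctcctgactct
Fcrls: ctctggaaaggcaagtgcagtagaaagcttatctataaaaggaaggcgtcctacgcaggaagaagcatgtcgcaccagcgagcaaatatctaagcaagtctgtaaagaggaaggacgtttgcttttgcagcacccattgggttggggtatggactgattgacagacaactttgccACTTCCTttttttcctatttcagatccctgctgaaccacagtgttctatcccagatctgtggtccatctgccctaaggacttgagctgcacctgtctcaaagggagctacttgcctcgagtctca
Gpnmb: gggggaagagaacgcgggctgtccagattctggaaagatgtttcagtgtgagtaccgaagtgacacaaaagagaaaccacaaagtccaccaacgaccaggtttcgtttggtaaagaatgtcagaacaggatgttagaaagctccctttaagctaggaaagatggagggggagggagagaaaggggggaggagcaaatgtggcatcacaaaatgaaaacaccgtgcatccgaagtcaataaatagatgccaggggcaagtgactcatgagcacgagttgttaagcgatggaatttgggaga
The window of Lyz2 holds the match at base 151 and that of Fcrls at base 176, and the window of Gpnmb holds none. Of the 32 members of the macrophage and lipid-associated lists that rose, 25 had a RefSeq window under their symbol. AGGAAGT was found in 6 of these 25 windows (24%), in 2 of 14 windows of the matrix genes that rose (14.3%) and in the windows of 10.7% of all 27025 genes with one. The shorter GAGGAA, searched on both strands and able to overlap AGGAAGT, was found in 15 of 25 (60%), in 6 of 14 matrix windows (42.9%) and in 31.3% of all genes. CACGTG, the E-box that lysosomal regulators bind, was found in 1 of 25 (4.0%, Ctsd), in 0 of 14 matrix windows and in 8.09% of all genes. These matches describe letters in the windows and do not show binding.

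Several complement genes rose. Of 17 tested members, 7 rose, none fell and 10 did not pass, with a median of 0.72. C1qb, a chain of the first recognition component, stood at 24.1, 31.0 and 20.3 CPM in hIAPP, against 8.63, 8.05 and 10.4 CPM in hCAST (1.48 ± 0.162, adjusted p = 5.95e-05 in edgeR's quasi-likelihood test), and C1qc rose by 1.52 ± 0.196. C1qa, the third chain, did not pass (0.42, adjusted p = 0.197). The receptors for the small fragments rose, C3ar1 by 1.73 ± 0.268 and C5ar1 by 1.71 ± 0.301. So did the soluble inhibitor Serping1 (0.76 ± 0.162), which lost its call without hCAST 1 or without hCAST 2. Leaving out either of these libraries left 4 members called. C3 and C4b did not pass.

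MHC class II genes, which macrophages and other antigen-presenting cells use to show peptides to T cells, were lower. Of 10 tested members, 3 fell, none rose and 7 did not pass, with a median of -0.63. H2-Aa stood at 27.6, 16.2 and 16.5 CPM in hIAPP, against 47.7, 40.6 and 45.0 CPM in hCAST (-1.14 ± 0.234, adjusted p = 0.0119 in edgeR's quasi-likelihood test). Its partner chain H2-Ab1 stood at 22.1, 14.4 and 12.1 CPM in hIAPP and at 35.7, 29.0 and 30.4 CPM in hCAST (-0.97 ± 0.19, adjusted p = 0.00792). Cd74, the invariant chain that guides class II molecules, stood at 50.8, 29.9 and 28.4 CPM in hIAPP, against 79.4, 73.7 and 73.2 CPM in hCAST (-1.05 ± 0.22, adjusted p = 0.0136). In all 3 genes hIAPP 1 was the highest hIAPP library and still lay below every hCAST library. Ciita, the regulator of class II transcription, did not pass (-0.72, adjusted p = 0.207). Without hIAPP 2, hIAPP 3 or hCAST 1, and in the fit of the 6 libraries alone, 1 of the 3 kept its call.

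Most members of the other immune lists were not called. Of 20 lymphocyte genes, 7 could be tested and 2 rose, Cd4 and Il7r (28.6%, against 5.04% of all tested genes). Cd4 had 263 counts over hIAPP and 25 over hCAST, a 10.8-fold ratio (95% interval 7.14 to 17.0), while Cd3d, Cd3e and Cd8a had 0 to 2 counts per library in either group. Cd4 is also carried by some myeloid cells. Il7r lost its call whichever of the 6 libraries was left out. Of 19 tested genes of interleukin 1 and the inflammasome, 1 rose (5.26%, against 5.04% of all tested genes). This was Nfkb2, a subunit of the transcription factor NF-kappaB (0.41 ± 0.115), which lost its call whichever of the 6 libraries was left out. Il1b (-0.13), Nlrp3 (0.48), Casp1 (0.55) and Tnf (0.41) did not pass. Of 23 tested interferon and MHC class I genes, 1 rose (4.35%, against 5.04% of all tested genes), and the median was -0.01. It was B2m, the light chain of class I molecules (0.53 ± 0.0974). Of 15 tested chemokine genes, Cxcl12, Cxcl16 and Ccl6 rose, by 1.11, 0.65 and 1.56, and the receptor Ccr1 fell by 1.35. The 3 rises came to 1 without hIAPP 2, hCAST 1 or hCAST 2. Ccr1 and Ccl6 stood at or below 2.2 CPM in each of the 6 libraries. Cxcl10, too low to be tested, had 9, 15 and 30 counts in hIAPP and 2, 1 and 0 counts in hCAST.

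Collagens and other matrix genes formed the next group. Of 30 tested members, 19 rose, none fell and 11 did not pass, with a median of 1.24, and the summed level was 2370, 2177 and 1939 CPM in hIAPP, against 990, 1097 and 1390 CPM in hCAST. The hIAPP libraries all lay above the hCAST libraries. Fn1, fibronectin, stood at 16.3, 16.5 and 13.8 CPM in hIAPP, against 2.7, 2.71 and 3.81 CPM in hCAST (2.34 ± 0.227, adjusted p = 2.21e-05 in edgeR's quasi-likelihood test). Col8a1, a short-chain collagen, stood at 12.2, 13.4 and 11 CPM in hIAPP and at 3.72, 4.06 and 4.13 CPM in hCAST (1.62 ± 0.198, adjusted p = 0.000166). The basement membrane chains Col4a1 and Col4a2 rose by 0.72 and 0.73, the 3 chains of collagen VI by 1.28 to 1.34, and Col18a1 by 1.21 ± 0.2. Enzymes that shape the matrix rose too. These were Lox (2.14) and Loxl1 (1.32 ± 0.17), which cross-link collagen, and Mmp14 (1.20 ± 0.185), a membrane protease. The fibrillar collagens Col1a1 (1.37, adjusted p = 0.0855), Col1a2 (1.04, adjusted p = 0.0991) and Col3a1 (1.04, adjusted p = 0.137) had fold changes of like size and did not pass.

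Stellate cells and pericytes, the contractile and matrix-making cells around islet capillaries, had the highest share of called members. Of 17 tested genes, 14 rose, none fell and 3 did not pass, with a median of 0.86. Notch3, a receptor of mural cells, stood at 57.7, 52.4 and 64.3 CPM in hIAPP, against 25.0, 25.1 and 27.3 CPM in hCAST (1.17 ± 0.138, adjusted p = 0.000136 in edgeR's quasi-likelihood test). Pdgfrb, the receptor that recruits these cells, stood at 85.6, 73.6 and 85.0 CPM in hIAPP and at 34.8, 33.8 and 41.4 CPM in hCAST (1.15 ± 0.143, adjusted p = 0.00023). The groups were well apart for both. The contractile genes Acta2 (1.09), Myh11 (0.86), Tagln (0.79) and Des (0.84) rose as well, and so did the growth factor Tgfb1 (0.77 ± 0.159) and its receptor Tgfbr2 (0.99 ± 0.158). The counts of the matrix list and of this list moved by more than 1.5 times when libraries were left out. Without hCAST 1 they were 10 and 9, and without hCAST 2 they were 10 and 6. The matrix count was 12 without hIAPP 1 and 12 without hIAPP 2.

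Endothelial genes gave 1 call in each direction, 6.25% of 16 tested members each, against 5.04% higher and 2.15% lower of all tested genes. Tie1 rose by 0.49, Esm1 fell by 0.98 and the median was 0.17. Both calls were lost without hCAST 1 or without hCAST 2, and Esm1 lost its call in 6 of the 14 alternatives on counts. Among 14 tested genes of Schwann and other neural cells, Sox10, Ngfr, Gfap and Foxd3 rose, by 1.15 to 1.40, with a median of 1.03 over the list. Sox10, the transcription factor of neural crest glia, stood at 2.34, 2.28 and 1.89 CPM in hIAPP, against 0.62, 0.714 and 1.12 CPM in hCAST (1.40 ± 0.282, adjusted p = 0.0064 in edgeR's quasi-likelihood test). Foxd3 lost its call in 10 and Gfap in 6 of the 14 alternatives on counts. The myelin gene Mbp (0.01) did not pass. Calls in this list fell to 2 without hIAPP 1, hIAPP 2, hIAPP 3, hCAST 1 or hCAST 2, and were 7 in the fit of the 6 libraries alone. Of 16 tested duct genes, Cldn4, a tight junction protein, rose by 0.69 (6.25%, against 5.04% of all tested genes).

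Exocrine RNA overlapped between the groups. Of 25 tested acinar genes, 1 was called higher (Bhlha15, 0.59), a share of 4.0% against 5.04% of all tested genes. Its groups overlapped, and it lost its call in 6 of the 14 alternatives on counts. The median of the list was 0.53, and it came to 0.08 without hIAPP 2. With the acinar level as a covariate, 20 macrophage members, 22 matrix members and 15 stellate members were called. The adipocyte and red cell lists had 1 testable gene each, and neither passed.

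**Figure D3:**
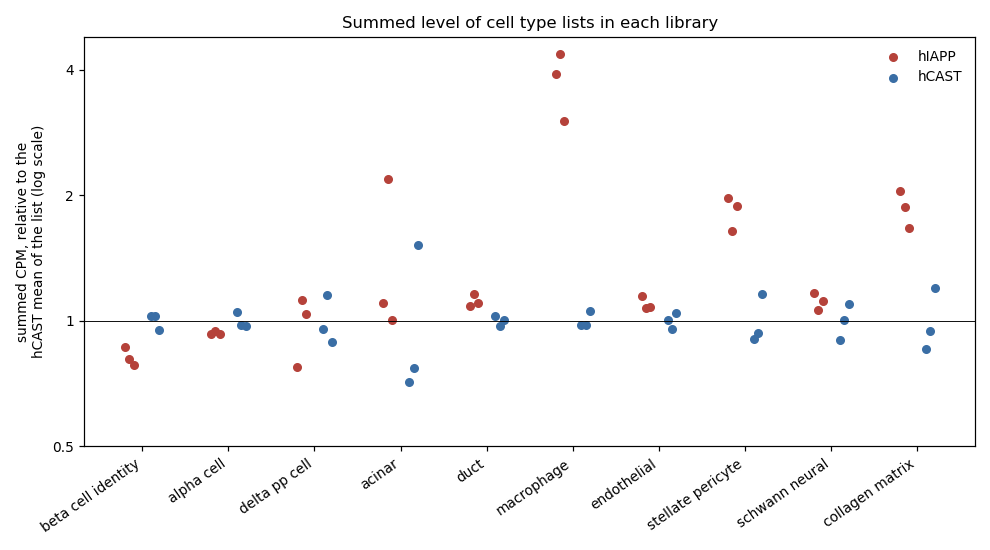
Summed CPM of cell type lists in each hIAPP (red) and hCAST (blue) library, each divided by the hCAST mean of its list, on a log scale. The macrophage list is 3.76-fold higher in hIAPP, and the stellate and matrix lists are 1.84-fold and 1.87-fold higher without overlap. The beta cell list, mostly Ins1, Ins2 and Iapp, is at 0.819 of the hCAST mean, and the acinar list overlaps.

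Some beta cell genes were lower. Of 34 tested identity genes, 9 fell, none rose and 25 did not pass, with a median of -0.30, and for 26 the hIAPP libraries lay wholly below the hCAST libraries, where 32.7% of all tested genes had no overlap in either direction. The summed level was 117030, 109131 and 105942 CPM in hIAPP, against 138657, 138577 and 128237 CPM in hCAST. Most of this sum came from Ins1, Ins2 and Iapp, none of which passed in the main fit. Nnat, a small membrane protein that aids insulin processing in beta cells, stood at 43.2, 38.0 and 30.7 CPM in hIAPP, against 98.4, 67.0 and 72.6 CPM in hCAST (-1.09 ± 0.135, adjusted p = 0.00021 in edgeR's quasi-likelihood test). Ucn3, a peptide of mature beta cells, stood at 250, 253 and 209 CPM in hIAPP and at 401, 382 and 341 CPM in hCAST (-0.66 ± 0.126, adjusted p = 0.00481). All hIAPP libraries lay below all hCAST libraries for both genes. Slc2a2, the glucose transporter GLUT2, stood at 455, 320.0 and 330.0 CPM in hIAPP, against 831, 943 and 741 CPM in hCAST (-1.19 ± 0.257, adjusted p = 0.0155). Trpm5, a calcium-activated cation channel, stood at 63.1, 56.9 and 28.2 CPM in hIAPP and at 132, 135 and 128 CPM in hCAST (-1.42 ± 0.289, adjusted p = 0.014). Slc2a2 was highest in hIAPP 1 and Trpm5 lowest in hIAPP 3 within their group. Slc2a2 lost its call without hIAPP 2, hIAPP 3, hCAST 1 or hCAST 2, and Trpm5 without hCAST 2 and in the fit of the 6 libraries alone.

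Further members that fell were Ero1lb, an oxidase for proinsulin folding (-0.73 ± 0.151), Pcsk1, the prohormone convertase that starts proinsulin cleavage (-0.58 ± 0.121), Slc30a8, the zinc transporter of insulin granules (-0.66), Gjd2, the gap junction protein that couples beta cells (-0.34 ± 0.0785), and the transcription factor Isl1 (-0.34). The insulin genes did not pass in the main fit, though each passed in at least 1 of the alternative fits. Ins1 stood at 39524, 34466 and 34747 CPM in hIAPP, against 47694, 48056 and 43639 CPM in hCAST (-0.36 ± 0.134, adjusted p = 0.126 in edgeR's quasi-likelihood test). Ins2 stood at 40316, 37974 and 35493 CPM in hIAPP and at 50138, 48678 and 43863 CPM in hCAST (-0.33 ± 0.112, adjusted p = 0.0922). The groups did not overlap for either gene, and the 2 paralogs can share reads. The transcription factors Pdx1 (-0.28), Mafa (-0.40), Nkx6-1 (-0.34) and Neurod1 (-0.28) did not pass either. The number of beta cell members that fell depended on the fit. It was 20 with the 6 libraries alone, 17 in DESeq2, 14 with the acinar covariate, 5 without hIAPP 2, 5 without hIAPP 3, 5 without hCAST 1 and 3 without hCAST 2.

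Granule and ion channel lists had calls in both directions. Of 23 tested granule and exocytosis genes, 3 fell (13.0%, against 2.15% of all tested genes) and 1 rose. Chga, the abundant granule protein chromogranin A, fell to 7734, 6730 and 7219 CPM in hIAPP, against 10699, 9810 and 9424 CPM in hCAST (-0.47 ± 0.115, adjusted p = 0.0216 in edgeR's quasi-likelihood test). The scaffold Rims2 (-0.28) and the synaptotagmin Syt13 (-0.37) fell, while Vgf, a neuropeptide precursor, rose by 0.62 ± 0.114. These 3 falls were lost without hIAPP 3, hCAST 1 or hCAST 2. Of 20 tested ion channel genes, the sodium channel Scn9a fell by 0.38, Trpm5 fell as above and the chloride channel Ano1 rose by 0.87, and this single rise (5.0%) is at the background share of 5.04%. Among the other hormones, Gcg (-0.05), Sst (-0.05) and Ppy (-0.08) did not pass. Of 15 tested alpha cell genes, Gc rose and Slc7a2 fell (6.67% each, against 5.04% and 2.15% of all tested genes). Of 10 genes of delta and PP cells, Rbp4 fell by 0.40 (10.0%, against 2.15%). Among the leave-one-out fits, Slc7a2 kept its call only without hIAPP 1, and Rbp4 only without hCAST 3.

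Genes tied to loss of beta cell maturity and to progenitor cells were checked next. Of 13 tested members, 4 rose and 1 fell, with a median of 0.03, and this split was the same in every leave-one-out fit. Aldh1a3, a retinaldehyde dehydrogenase known from failing beta cells, stood at 45.3, 60.8 and 84.6 CPM in hIAPP, against 13.6, 7.03 and 8.64 CPM in hCAST (2.70 ± 0.394, adjusted p = 0.00247 in edgeR's quasi-likelihood test). All hIAPP libraries lay far above the hCAST libraries, with hIAPP 3 the highest. Serpina7, which encodes thyroxine-binding globulin, rose by 1.41 ± 0.251, Gc, the vitamin D-binding protein, by 0.75 ± 0.119, and Vgf as above. Ppp1r1a, an inhibitor of protein phosphatase 1, fell by 0.42 ± 0.0853. Of 15 tested genes normally kept off in beta cells, Cxcl12, Igfbp4, Ndrg4 and Maf rose, with a median of 0.42. Ldha (0.46) and Slc16a1 (0.15), the best-known of them, did not pass. Igfbp4, Ndrg4 and Maf each lost its call in 5 of the 6 leave-one-out fits, and 8 members of the list were called in the fit of the 6 libraries alone.

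Most stress genes did not pass. Of 30 tested genes of the unfolded protein response, 4 rose (13.3%, against 5.04% of all tested genes), with a median of 0.18. Trib3, a pseudokinase induced by ATF4 and CHOP, stood at 5.08, 6.35 and 9.16 CPM in hIAPP, against 1.74, 3.07 and 3.31 CPM in hCAST (1.34 ± 0.243, adjusted p = 0.0035 in edgeR's quasi-likelihood test). Ppp1r15a, which restarts translation after stress, rose by 0.65 ± 0.13, and Syvn1 and Dnajb11, which serve protein disposal and folding in the endoplasmic reticulum, rose by 0.42 and 0.39. The central genes Hspa5 (0.21), Ddit3 (0.41), Atf4 (0.22) and Xbp1 (0.00) did not pass. Leaving out hIAPP 2, hIAPP 3, hCAST 2 or the 3 ribosomal-rich libraries of other groups each left 2 members called.

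Hmox1, the heme oxygenase, was the only antioxidant gene of 17 tested that rose (0.66 ± 0.144), a share of 5.88%. It lost its call without hIAPP 3 or without hCAST 1. Gdf15, a stress-induced cytokine, was the only p53 target of 15 tested that rose (1.5 ± 0.302), a share of 6.67%. Both shares are near the 5.04% of all tested genes called higher. Of 20 tested immediate early genes, which respond quickly to stimuli and tissue handling, Egr2, Klf6 and Ier3 rose (15.0%, against 5.04%). The median was 0.68. Fos (0.93) and Atf3 (1.21) did not pass, and no member was called without hCAST 1 or without hCAST 2, and 1 without hIAPP 3. Of 28 tested lysosome and autophagy genes 7 rose (25.0%, against 5.04%), with a median of 0.06. Ctss, given above with the macrophage genes, had the largest change of the list (1.53). The protease Ctsd stood at 490.0, 630.0 and 481 CPM in hIAPP and at 304, 326 and 322 CPM in hCAST (0.75 ± 0.113, adjusted p = 0.000726 in edgeR's quasi-likelihood test). Ctsb, another protease, rose by 0.58 ± 0.094. Ctss, Ctsb, Ctsd and Ctsz stand in the macrophage lists as well. No member was called among 16 heat shock, 24 proteasome, 24 respiratory chain, 25 cell cycle and 8 calpain genes. In these 5 lists, with 97 tested genes, 12 had an unadjusted p below 0.05 in edgeR's quasi-likelihood test, where 3345 of all 15460 tested genes did, DESeq2 called 1, and the fit of the 6 libraries alone called 4. The medians were -0.01 to 0.10. Of 23 glycolysis genes, Pfkp rose by 0.38 and Pkm fell by 0.34 (4.35% each, against 5.04% and 2.15% of all tested genes). Of 18 cholesterol genes, Dhcr7 rose by 0.37 (5.56%, against 5.04%). Pfkp lost its call without hCAST 1 or without hCAST 2. Among the leave-one-out fits, Pkm kept its call only without hCAST 3, and Dhcr7 only without hIAPP 1 or hCAST 1.

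**Figure D4:**
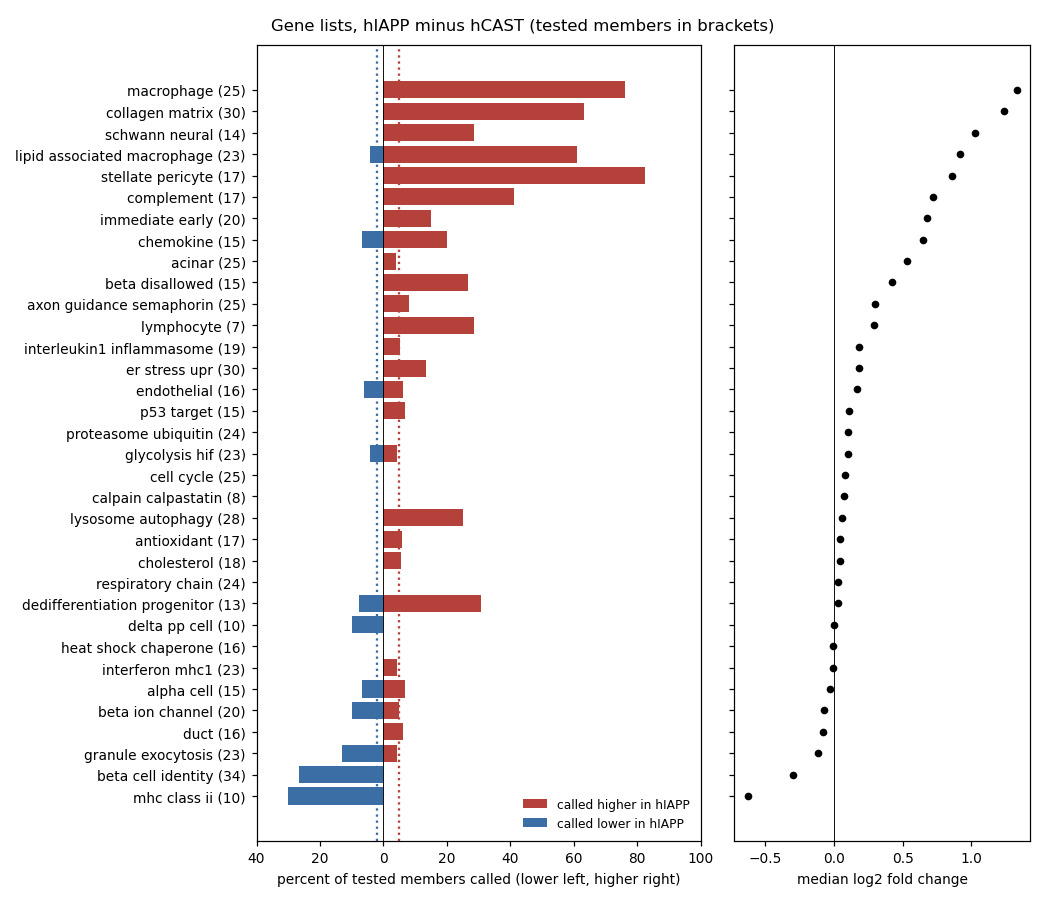
Left, percent of the tested members of each list called higher (red, to the right) or lower (blue, to the left) in hIAPP, with dotted lines at the background of 5.04% and 2.15%; right, the median log2 fold change of the tested members. Lists with at least 7 tested members are shown, sorted by their median, from macrophage at 1.33 to MHC class II at -0.63.

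The smallest p-value in the comparison was that of Sema5a, which encodes a transmembrane semaphorin for axon guidance. It lies at chr15:32244810-32696341 (GRCm38, plus strand). Sema5a stood at 538, 527 and 530.0 CPM in hIAPP, against 11.8, 10.0 and 12.5 CPM in hCAST, a 46.3-fold ratio of the means (log2 fold change 5.53 ± 0.136, adjusted p = 6.81e-14 in edgeR's quasi-likelihood test). Within each group the libraries differed by little. Snhg18, a long non-coding RNA at chr15:32240565-32244662 on the minus strand, stood at 91.7, 88.5 and 95.7 CPM in hIAPP and at 6.78, 6.0 and 6.15 CPM in hCAST (3.87 ± 0.111, adjusted p = 4.27e-13). Of 25 tested semaphorin and axon guidance genes, Sema5a and Sema3f rose (8.0%, against 5.04% of all tested genes) and no gene fell. Sema3f rose by 0.42 and lost its call without hIAPP 1, hIAPP 2, hCAST 1 or hCAST 2. Sema5a and Snhg18 start back to back, and the RefSeq promoter window of Sema5a (chr15:32244563-32244862, GRCm38.p6, plus strand) covers both starts. It is shown with the 150 bases between the RefSeq starts in capitals.
Sema5a: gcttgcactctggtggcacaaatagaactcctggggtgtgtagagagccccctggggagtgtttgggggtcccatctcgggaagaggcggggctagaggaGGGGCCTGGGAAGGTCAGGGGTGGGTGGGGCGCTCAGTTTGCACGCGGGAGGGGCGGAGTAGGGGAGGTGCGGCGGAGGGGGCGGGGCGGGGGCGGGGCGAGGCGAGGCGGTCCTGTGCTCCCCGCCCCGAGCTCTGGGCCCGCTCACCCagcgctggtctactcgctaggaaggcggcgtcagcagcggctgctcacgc
The window is 71.3% G and C and holds 23 CG pairs, and 21.5% of 32851 RefSeq windows hold at least as many.

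Genes around this pair also differed. Within 2 Mb of Sema5a, 22 genes were tested and 9 were called (40.9%), against 7.19% of all tested genes. Both the 22 and the 9 include Sema5a, around which the window was drawn, Snhg18 and Snord123. The share is therefore higher than that of the other neighbours alone. The neighbours named here were chosen after their values were seen. Snord123, a small nucleolar RNA inside Snhg18, had 118 counts over hIAPP and 7 over hCAST, and reads of host and guest cannot be told apart. Matn2, a matrix protein at the far end, rose by 0.99 ± 0.249. It lost its call in 7 of the 14 alternatives on counts, and among the leave-one-out fits kept it only without hCAST 3. The other 5 fell. Cpq, a carboxypeptidase, stood at 54.1, 56.6 and 57.6 CPM in hIAPP, against 91.3, 95.6 and 85.1 CPM in hCAST (-0.69 ± 0.0609, adjusted p = 4.22e-06 in edgeR's quasi-likelihood test). Cmbl, a hydrolase, fell by 1.03 ± 0.165, Tspyl5 by 0.71 ± 0.144, Ankrd33b by 0.48 ± 0.0944 and the cell surface proteoglycan Sdc2 by 0.37 ± 0.0779. The groups did not overlap for any of the 9.

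**Figure D5:**
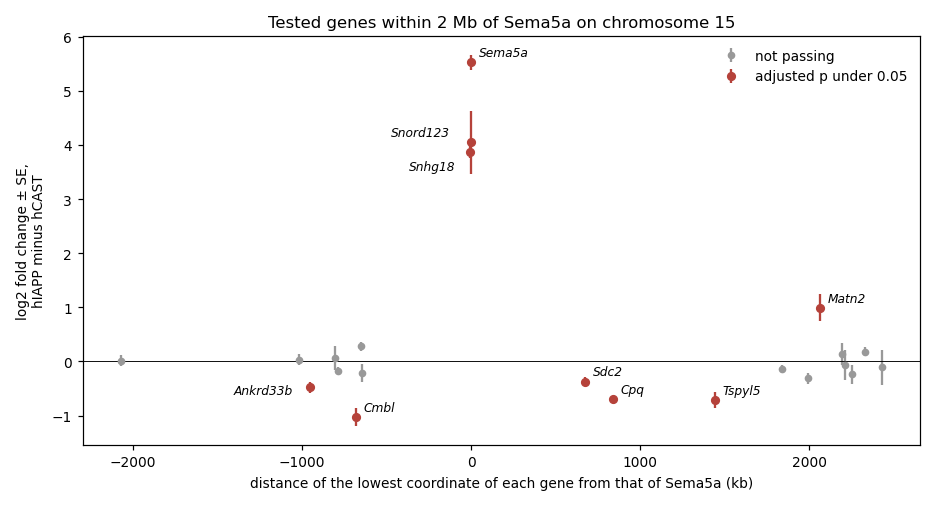
Fitted log2 fold change with its SE (hIAPP minus hCAST) of the 22 tested genes within 2 Mb of Sema5a, against the distance in kb of their lowest coordinate from that of Sema5a. Red points are the 9 called genes; Sema5a, Snord123 and Snhg18 stand at the centre near 4 to 6, Matn2 at 0.99, and 5 genes on both sides lie between -0.37 and -1.03.

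Some of the leading genes could be set beside the groups that carry the same transgenes in other combinations. Their libraries are separate from the 6 compared here and were fitted together with them, and fold changes against wild type share the hIAPP or hCAST libraries. Sema5a stood at 570.0, 526 and 613 CPM in the double transgenic islets (human IAPP with human CAST), at 5.17, 4.0 and 5.78 CPM in islets with rodent IAPP and at 11.1, 17.1 and 12 CPM in wild type. It was high only where the labels give human IAPP. Osbpl1a, an oxysterol-binding protein, stood at 27.8, 27.2 and 22.4 CPM in hIAPP, against 4.32, 3.92 and 4.19 CPM in hCAST (2.64 ± 0.12, adjusted p = 5.39e-10 in edgeR's quasi-likelihood test). It was at 27.2, 27.8 and 25.6 CPM with rodent IAPP and at 3.46, 2.19 and 3.32 CPM in wild type. So it was high with either IAPP transgene. Of the 18 tested genes within 2 Mb, itself included, only Osbpl1a was called (5.56%, against 7.19% of all tested genes).

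A second set was high in both groups with human CAST. Tram1l1, related to a protein translocation factor of the endoplasmic reticulum, was the largest fall under the naming rule. It stood at 1.78, 1.81 and 1.39 CPM in hIAPP, against 10.7, 9.24 and 9.29 CPM in hCAST (-2.56 ± 0.153, adjusted p = 3.27e-08 in edgeR's quasi-likelihood test). It was at 10.9, 8.85 and 11 CPM in the double transgenic islets and at 1.87, 2.63 and 1.93 CPM in wild type. Its neighbour on chromosome 3, 1700006A11Rik, had 0 counts in every hIAPP library and 68, 84 and 73 counts in hCAST, at least 73.2-fold higher in hCAST against a floor of 3 counts over the group. In the double transgenic islets it was at 1.55, 1.28 and 1.56 CPM, and in wild type and rodent IAPP islets at 0. H2-Ea-ps, a class II entry annotated as a polymorphic pseudogene (chr17:34341959-34344645), stood at 0.586, 0.0646 and 0.148 CPM in hIAPP, against 52.3, 48.8 and 47.2 CPM in hCAST (-7.49 ± 0.444, adjusted p = 2.77e-06). It was at 98.7, 52.4 and 117 CPM in the double transgenic islets and at 0.473, 0.438 and 0.54 CPM in wild type. In the same fit, hCAST minus wild type gave 3 calls (0.0194% of tested genes), and Tram1l1, 1700006A11Rik and H2-Ea-ps were the genes called, with log2 fold changes of 2.32 for Tram1l1 and 6.66 for H2-Ea-ps. H2-Ea-ps and 1700006A11Rik were picked after their values were seen. Edil3, a secreted protein of vessels, stood at 11.8, 13.9 and 9.4 CPM in hIAPP, against 31.7, 25.8 and 29.1 CPM in hCAST (-1.30 ± 0.177, adjusted p = 0.000501), and was at 41.6, 28.7 and 25.3 CPM in the double transgenic islets and 11.6, 16.6 and 14.5 CPM in wild type.

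Lyz2, H2-Aa and Nnat, taken from the macrophage, class II and beta cell lists, had other patterns across the groups. Lyz2 stood at 99.0, 55.7 and 42.2 CPM in the double transgenic islets and at 9.4, 8.32 and 10.9 CPM in wild type. H2-Aa stood at 19.5, 17.0 and 14.1 CPM with both transgenes and at 47.3, 24.1 and 55.5 CPM in wild type. Nnat stood at 44.0, 48.2 and 44.0 CPM with both transgenes and at 127, 115 and 118 CPM in wild type. For hCAST minus wild type the log2 fold changes were 0.31 for Lyz2, -0.03 for H2-Aa and -0.60 for Nnat, and none passed (adjusted p = 0.915, 1.0 and 0.34 in edgeR's quasi-likelihood test). For hIAPP minus wild type, which shares the hIAPP libraries, they were 4.0, -1.17 and -1.69. The wild type libraries 2 and 3 held 94.28 and 68.9% ribosomal-gene counts, so their values rest on fewer reads than those of hCAST.

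The other large falls under the naming rule belonged to no list. Arhgap36, a regulator of hedgehog and protein kinase A signalling on the X chromosome, stood at 18.1, 22.6 and 13.6 CPM in hIAPP, against 45.2, 55.8 and 70.9 CPM in hCAST (-1.66 ± 0.211, adjusted p = 0.000501 in edgeR's quasi-likelihood test). Slc14a2, a urea transporter, fell by 1.68 ± 0.343 and Npy, the appetite peptide neuropeptide Y, by 1.6 ± 0.374. Adam32, a protease-like membrane protein, fell by 1.61 ± 0.272, Myo3a, an unconventional myosin, by 1.61 ± 0.374, Alb, serum albumin, by 1.36 ± 0.297 and Fcgbp, a mucus protein, by 1.20 ± 0.325. Adam32, Myo3a, Alb and Fcgbp stood at or below 4.19 CPM in each of the 6 libraries. Slc14a2 lost its call in 4 leave-one-out fits, Myo3a in 3, Npy and Fcgbp in 5 and Alb without hIAPP 3, while Arhgap36 and Adam32 kept theirs in all 6.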

How the data were processed

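Gene counts and FPKM values of 15 islet libraries (total RNA, Ribo-Zero and NuGEN Ovation kits per the labels) were deposited by the authors as 2 tables. STAR, HTSeq and the build GRCm38/mm10 are named in the submitters' processing notes; strand setting, handling of multiply mapped reads and versions are not given in the sources used here. The deposited counts are whole reads per gene, and the FPKM values deposited by the authors scale them by length and depth.

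Counts of all 15 libraries were fitted with edgeR 4.0.16 in R 4.3.3 (TMM scaling, filterByExpr by group, 1 coefficient for each of 5 groups, robust quasi-likelihood test). Of 24060 entries, 2 symbols were repeated and 15460 genes passed the filter; the common biological coefficient of variation was 0.132. Calls were made at a Benjamini-Hochberg adjusted p below 0.05 over all tested genes. Levels are TMM-scaled CPM, and SE is the log2 fold change divided by the square root of F. The test was checked on simulated counts. Alternatives were DESeq2 1.42.0, RLE scaling, other filters, other sets of libraries, an acinar covariate, each replicate left out, and limma 3.58.1 on log2(FPKM + 1) and log2(FPKM + 0.1). Intervals of count ratios are exact, at 95%, and cover counting error only. Gene positions are from GENCODE on GRCm38 and promoter windows from RefSeq on GRCm38.p6. Figures were drawn with matplotlib 3.10.9.

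Genes were named by rule: the hormones, Iapp and Cast, the 12 called genes that rose most and the 12 that fell most, given a mean CPM of at least 1 and separate groups, and up to 6 called members of each of 37 lists, or the 3 with the smallest p where fewer than 3 were called. Other list members were added for their known roles. The members and lists were chosen with earlier results of these data known. Labels give no batch; the title numbers of hIAPP (596, 598 and 617) and hCAST (282, 287 and 288) lie in different ranges, so anything tied to them cannot be told apart from the groups. Some genes of these lists are not reported here.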

Additional observations from a re-analysis of the deposited data

How the results depend on the processing

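No paired analysis was possible because the title numbers of hIAPP and hCAST are not shared and the replicate numbers were given in accession order. Of 113 named genes that were called, 66 kept their call in all 14 alternatives on counts, 45 lost it in at least 1 leave-one-out fit, and no named gene changed direction in a call. Leaving out 1 library at a time gave 377 to 924 called genes, 300 to 689 higher and 77 to 235 lower. The 6 libraries alone gave 1784 calls, 665 of them lower, and the acinar covariate gave 551 lower genes. On log2(FPKM + 1), limma called 66 genes (61 higher, 5 lower), and on log2(FPKM + 0.1) it called 31 (28 higher, 3 lower); on the first of these scales 95 named genes lost their call, and the lists held 1 macrophage, 4 lipid-associated, 2 matrix, 0 stellate, 0 class II and 0 beta cell members called. The cause was not tested. DESeq2 (1379), RLE scaling (1109), no filter (990), the stricter filter (1081), leaving out the 3 ribosomal-rich libraries (1061) and leaving out the ribosomal-rich genes (1115) stayed within 1.5 times of 1112. With 3 libraries a group, genes under about 1 CPM rest on few reads, and a gene that did not pass is not shown to be unchanged.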
